A study of Homo sapiens with 59 samples.

Results

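Ribosome biogenesis genes encode the proteins that transcribe, modify, cut and fold ribosomal RNA and load it into the 2 ribosomal subunits. The 34 genes described here were taken by symbol from a list of nucleolar factors, and each matched 1 of the 60675 Ensembl genes in the count table. All 34 passed the filter on low counts and stood among the 18568 genes tested. The cells were A549, a human lung carcinoma cell line, exposed for 24 h to a 70% ethanol extract of an herbal medicine or to the vehicle dimethyl sulfoxide (DMSO). There were 8 extracts with 3 doses each. High, medium and low dose meant 110, 22 and 4.4 µg/mL for Coptidis Rhizoma. For Bupleuri Radix the doses were 190, 38 and 7.6 µg/mL. The same words meant 500, 100 and 20 µg/mL for the remaining 6, which were Yijung-tang, Banhasasim-tang, Aconiti Lateralis Radix Preparata, Citri Unshius Pericarpium, Zizyphi Fructus and Cimicifugae Rhizoma. Of the 59 libraries, 3 were vehicle. The extract groups held 2 or 3 libraries each, except Banhasasim-tang with 1 library at each dose, which therefore has no test. All groups were the same unmodified cell line and carry the same batch label. The sample labels give the vehicle as 0.1% DMSO and the series text as 2%. Nothing in the labels says that replicates came from separate cultures, so p-values measure only the spread between these libraries.

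Ribosome production starts in the nucleolus, where RNA polymerase I copies the ribosomal DNA into a long precursor. Small nucleolar ribonucleoproteins (snoRNPs) of the box C/D class guide methylation of that precursor, and those of the box H/ACA class guide the change of uridine to pseudouridine. Further factors then cut and fold it into the small and the large subunit. Growing cells, tumour lines such as A549 among them, spend much of their transcription on this pathway, and many of its genes carry the sequence CACGTG, an E-box that the MYC-MAX pair is known to bind, near their start.

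The E-box is shown first because it was shared by many members and was not used to choose them. RefSeq promoter windows of the GRCh38.p14 assembly were at hand for 29 of the 34 members. Each runs from 250 bases before to 50 bases after the start on which the window was built. BOP1, NOLC1, NOP58, RRP12 and RRS1 had no entry. CACGTG, which reads the same on both strands, lay in the windows of 16 of those 29 members (55.2%). The same 6 letters were in the windows of 12.2% of the genes tested and of 8.8% of all genes in the table. In 12 of the 16 members the motif began after the start of its window and in 4 before it, at positions from -64 to 36. That start can lie inside the gene as GENCODE places it, as for NOP2 and DDX21. The following stretches show the E-box in capitals, 5′ to 3′ on the gene's strand. First come the 7 members with the motif that rose at the medium dose of Aconiti Lateralis Radix Preparata. Then come BYSL, FBL and UTP20, which carry the same letters and did not pass the test there. LYAR, NOP14, PES1, PNO1, RRP9 and WDR43 carry them too, did not pass there with all 59 libraries, and are not shown.
NOP2 (chr12:6568242-6568268, minus strand): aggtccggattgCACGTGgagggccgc
GNL2 (chr1:37595917-37595946, minus strand): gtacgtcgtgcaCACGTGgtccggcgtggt
GNL3 (chr3:52686026-52686055, plus strand): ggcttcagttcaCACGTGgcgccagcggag
DDX21 (chr10:68956604-68956633, plus strand): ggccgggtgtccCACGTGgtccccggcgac
RCL1 (chr9:4792936-4792965, plus strand): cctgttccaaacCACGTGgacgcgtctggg
GAR1 (chr4:109815781-109815810, plus strand): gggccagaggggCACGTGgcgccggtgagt
MYBBP1A (chr17:4555340-4555369, minus strand): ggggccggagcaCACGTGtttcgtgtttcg
BYSL (chr6:41921515-41921544, plus strand): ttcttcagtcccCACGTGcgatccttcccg
FBL (chr19:39846356-39846385, minus strand): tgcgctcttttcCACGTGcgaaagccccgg
UTP20 (chr12:101280083-101280112, plus strand): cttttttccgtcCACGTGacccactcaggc
Each of the other motifs searched was found in fewer members. CCGGAAG, of the kind ETS factors bind, was found on either strand in 8 of the 29 members (27.6%). That stands against 20.6% of the genes tested and 12.2% of all genes with a window. AAGATGGC was found in 1 member (3.4%), POLR1C, against 5.9% of the genes tested and 3.5% of all. The palindrome bound by BANP was found in 1 member (3.4%), NOP14, against 1.0% of the genes tested and 0.5% of all, and 1 gene is too few to set beside these shares. Both strands were searched, none of the motifs contains another, and a match is a description of these windows only.

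Depth ran from 17214755 to 39751161 expected counts per library, and levels are given as CPM, a gene's counts relative to the library's total, scaled by the trimmed mean of M-values (TMM). A gene is called where edgeR's quasi-likelihood test gave a Benjamini-Hochberg adjusted p below 0.05 over all genes tested. A549 markers fit the line's label in part: the epithelial keratins KRT7, KRT8 and KRT18 had medians of 2128, 3240 and 2344 CPM over the libraries, while EPCAM had a median of 5.16 CPM. All 4 endothelial markers and the leukocyte markers PTPRC and CD3E were below 1 CPM throughout, while CD68 and CD14 reached 30.4 and 3.16 CPM. A set of 4 libraries stood apart on principal component 1 (18.2% of the variance): Citri Unshius Pericarpium high dose replicate 3 and medium dose replicate 3, and Cimicifugae Rhizoma medium dose replicate 2 and low dose replicate 2. They lay between 41.02 and 107 on that component, and no other library lay above 15.51. Their antisense genes took 3149 to 4601 CPM before scaling, against 2762 to 2806 in vehicle and 3133 and 3137 with high dose Coptidis Rhizoma. They enter the shared estimate of the spread in every test, so results are given with all 59 libraries and, where that changes a call, with the other 55.

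The summed level of the 34 members was 7113 to 7272 CPM in the 3 vehicle libraries. It was 8478 and 8780 CPM in the 2 libraries of medium dose Aconiti Lateralis Radix Preparata. The 4 libraries that stand apart held 7997 to 12480 CPM. The other 4 libraries of Citri Unshius Pericarpium at its upper doses spread from 6688 to 9596 CPM, and the other 49 libraries, vehicle included, stayed between 6624 and 7704 CPM. High sums were thus seen in 1 dose group as a whole and in single libraries of 2 other extracts. In bulk RNA, fewer cells of a type and less RNA per cell cannot be told apart. The extract libraries carry sample codes of several series and the vehicle libraries a code of their own, so that in comparisons with vehicle the extract and the library series cannot be told apart.

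**Figure D1:**
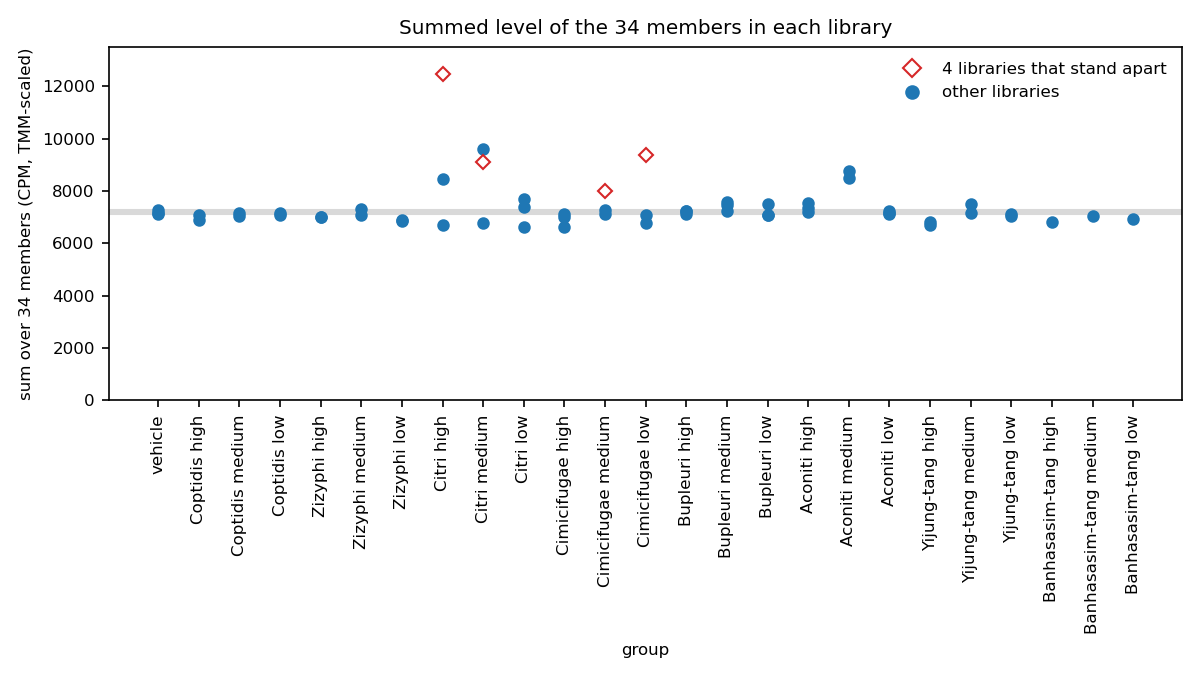
Sum of the 34 members (CPM, TMM-scaled, vertical axis) in each library, by group (horizontal axis), with the vehicle range as a grey band, filled circles for other libraries and open diamonds for the 4 libraries that stand apart. Both Aconiti Lateralis Radix Preparata medium dose libraries, at 8478 and 8780 CPM, lie above all vehicle libraries, and the highest point, 12480 CPM, is 1 library of Citri Unshius Pericarpium.

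**Figure D2:**
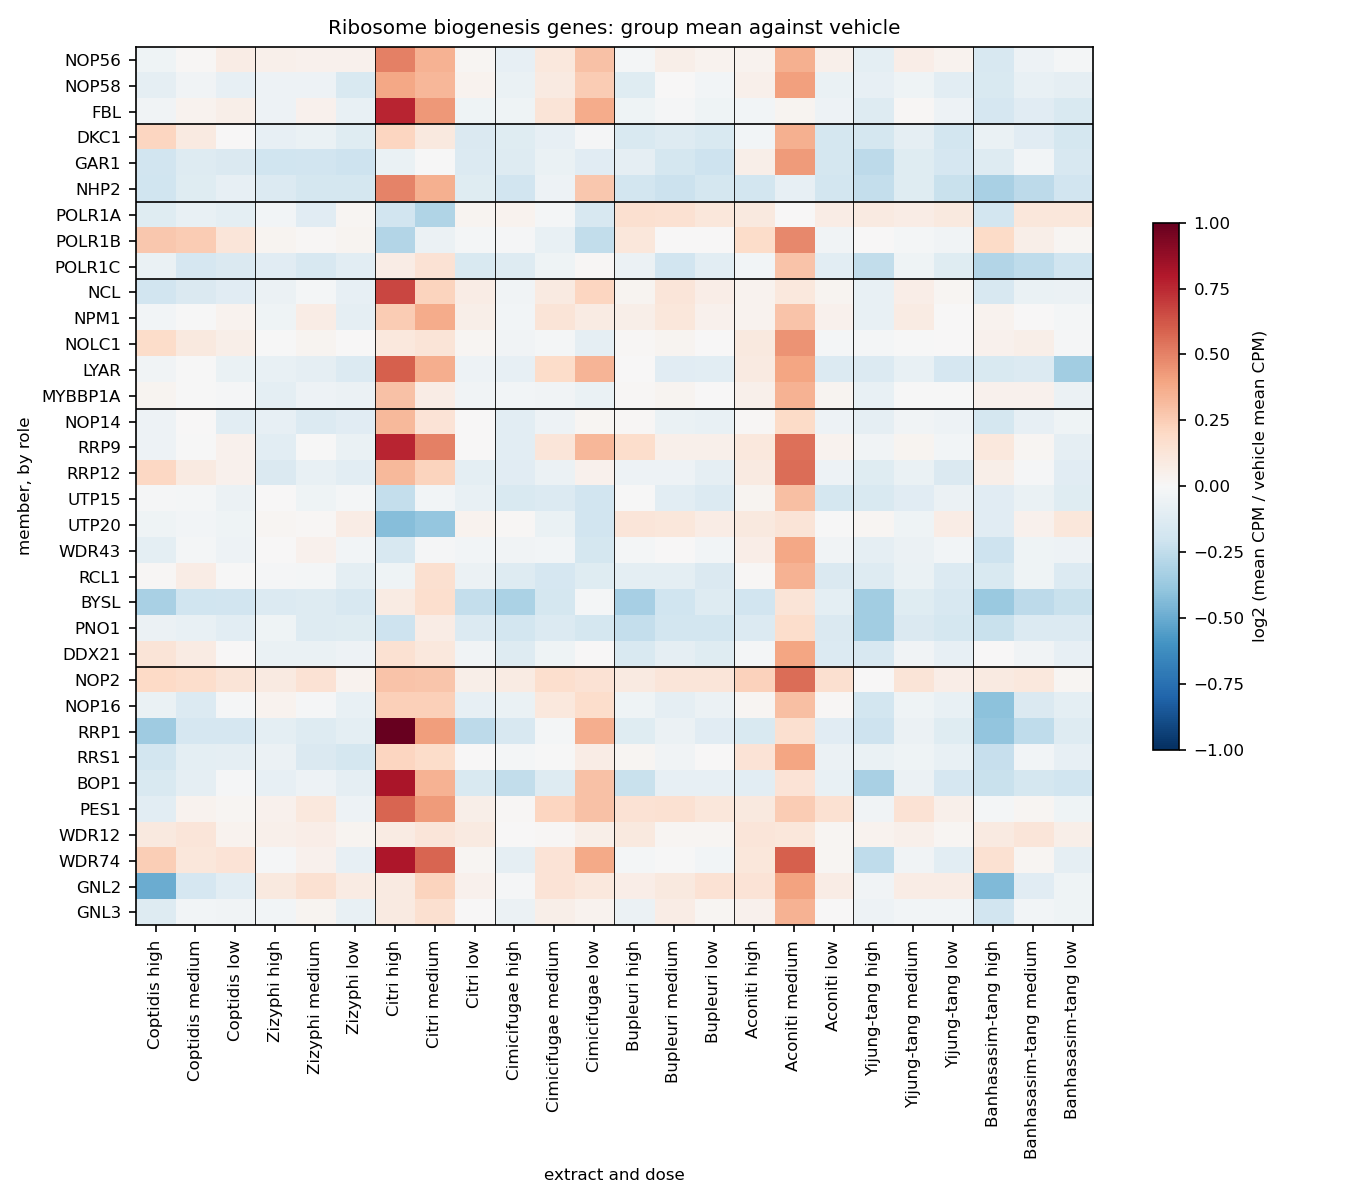
Log2 ratio of each group's mean CPM to the vehicle mean (colour, saturated at -1 and 1) for the 34 members (rows, by role) and the 24 extract and dose groups (columns). Values above 0 fill most of the column of medium dose Aconiti Lateralis Radix Preparata and those of Citri Unshius Pericarpium at its upper doses. GNL2 is among the lowered members at the high doses of Coptidis Rhizoma and of Banhasasim-tang (-0.44, 1 library). The Citri Unshius Pericarpium means include replicate 3, which stands apart at both upper doses. In replicates 1, 2 and 3 the median member was at -0.08, 0.18 and 0.47 at its high dose. At its medium dose it was at -0.07, 0.34 and 0.31.

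Ribosome biogenesis genes were higher with Aconiti Lateralis Radix Preparata, the processed lateral root of aconite, at its medium dose of 100 µg/mL. Of the 34 members, 11 rose against vehicle and none fell, with 33 of 34 log2 fold changes above 0. The median member changed by 0.35 on the log2 scale, with a range from -0.08 to 0.60, while the median of all genes tested was -0.009. Over all genes tested, 8.23% were called higher and 9.28% lower in this comparison. Without the 4 libraries that stand apart, 22 members rose, the 11 among them, against 16.5% of all genes tested. DESeq2 also called 11. The medium dose group has 2 libraries, and 7 members were called without its replicate 2. NOP2, RRP12, NOLC1 and DDX21 passed under all 13 alternatives run. With no low-count filter 9 members were called. These were 5 of the 11, with DKC1, GNL2, GNL3, MYBBP1A, RCL1 and RRS1 lost, and 4 others, NOP58, POLR1B, RRP9 and WDR74. DKC1 was also lost without any 1 of the 5 libraries compared. RRS1 was lost without either medium dose library or vehicle replicate 2, GAR1 without medium dose replicate 1 or vehicle replicate 2, and MYBBP1A and RCL1 without medium dose replicate 2.

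Among the factors of the large subunit, 4 of 10 rose: NOP2, GNL2, GNL3 and RRS1. NOP2, a methyltransferase of the large subunit's ribosomal RNA (chromosome 12, 6556863 to 6568691 on GRCh38), had 231 and 232 CPM against 159, 155 and 157 CPM in vehicle. The groups did not overlap, and NOP2 rose 1.47-fold (log2 fold change 0.56, SE 0.09). NOP2 also lay above all vehicle libraries in 48 of the 52 extract libraries other than the 4 that stand apart. How many of all genes did so as often was not counted. GNL2, a nucleolar GTPase needed for export of the large subunit, had 66.7 and 66.0 CPM against 53.7, 47.6 and 49.5 CPM, a log2 fold change of 0.40 (SE 0.08, adjusted p = 0.000487). Its relative GNL3, also called nucleostemin, had 120 and 115 CPM against 94.2, 86.7 and 95.1 CPM, a log2 fold change of 0.35. RRS1, which brings the 5S RNA particle into the large subunit, had 127 and 125 CPM against 94.7, 92.6 and 99.8 CPM, a log2 fold change of 0.39. All 4 had both treated libraries above every vehicle library.

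The largest fitted change of any member was that of WDR74, a factor in maturation of the large subunit, and it did not pass the test with all libraries. WDR74 had 59.7 and 57.9 CPM against 36.4, 38.6 and 41.7 CPM, a log2 fold change of 0.60 (SE 0.27, adjusted p = 0.137), and an adjusted p of 0.000524 without the 4 libraries. NOP16 had a log2 fold change of 0.30 and likewise passed without them (adjusted p = 0.0181) but not with them. RRP1, BOP1, PES1 and WDR12, which act on the precursor of the large subunit's RNAs and of which the last 3 form the PeBoW complex, were not called in either fit. Their log2 fold changes were 0.16, 0.13, 0.26 and 0.12.

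In the small subunit group 3 of 10 rose: RRP12, DDX21 and RCL1. RRP12, a repeat protein in export of both subunits, had 167 and 174 CPM against 120, 113 and 114 CPM, and its log2 fold change was 0.56 (SE 0.14, adjusted p = 0.00319). DDX21, an RNA helicase of the nucleolus, had 582 and 573 CPM against 452, 436 and 428 CPM, a log2 fold change of 0.40 (adjusted p = 0.00237). RCL1, which takes part in processing the precursor of the small subunit's RNA, had 41.7 and 43.4 CPM against 34.1, 33.7 and 32.4 CPM, a log2 fold change of 0.35. RRP9, a protein of the U3 particle, had 52.9 and 49.2 CPM against 35.3, 33.5 and 35.8 CPM, with a log2 fold change of 0.55 that passed without the 4 libraries but not with them (adjusted p 0.00076 and 0.131). The same held for NOP14, UTP15 and WDR43, members of the early small subunit particle, at log2 fold changes of 0.19, 0.30 and 0.39. BYSL, PNO1 and UTP20 were not called in either fit, with 0.13, 0.18 and 0.12.

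Within each snoRNP class the members differed in their change. In the box H/ACA particle, DKC1 (dyskerin, the pseudouridine synthase) had 250 and 251 CPM against 199, 197 and 193 CPM. Its log2 fold change was 0.35 (adjusted p = 0.0344). GAR1, which joins the same particle last, rose with a log2 fold change of 0.42, from 32.8, 32.2 and 33.6 CPM to 47.1 and 41.1 CPM. NHP2, the third member of the particle listed, had 128 and 120 CPM against 128, 131 and 135 CPM, and its log2 fold change of -0.08 did not pass. In the box C/D particle the scaffold proteins NOP56 and NOP58 had log2 fold changes of 0.36 and 0.41 and passed in the 55 libraries but not in all 59. FBL (fibrillarin), the methyltransferase of that particle, had 365 and 323 CPM against 332, 333 and 348 CPM, and the groups overlapped.

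Of the RNA polymerase I subunits none was called with all libraries. POLR1B, the second largest subunit, had 96.6 and 99.8 CPM against 71.0, 71.0 and 68.8 CPM. Its log2 fold change of 0.48 had an adjusted p of 0.155 with 59 libraries and of 1.59e-06 with 55. POLR1C, a subunit shared with RNA polymerase III, had 0.28 and passed with 55 libraries but not with 59. POLR1A, the largest subunit, had 209 and 247 CPM against 250, 230 and 202 CPM, and its groups overlapped. Among the nucleolar phosphoproteins and regulators 2 of 5 rose. NOLC1, a chaperone of snoRNPs, had 378 and 398 CPM against 288, 284 and 280 CPM, a log2 fold change of 0.45 (SE 0.09, adjusted p = 0.000228). MYBBP1A, which binds the polymerase I machinery, had 202 and 211 CPM against 170, 159 and 159 CPM, a log2 fold change of 0.35. LYAR had 0.39 and passed with 55 libraries but not with 59. The abundant histone chaperone NPM1 (nucleophosmin) had 2322 and 2074 CPM against 1788, 1784 and 1850 CPM, with adjusted p of 0.175 in the fit of 59 libraries and 0.0566 in that of 55, and nucleolin (NCL) had a log2 fold change of 0.11. NPM1 has 49 pseudogenes in the annotation, so its count is uncertain where reads could be shared.

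**Figure D3:**
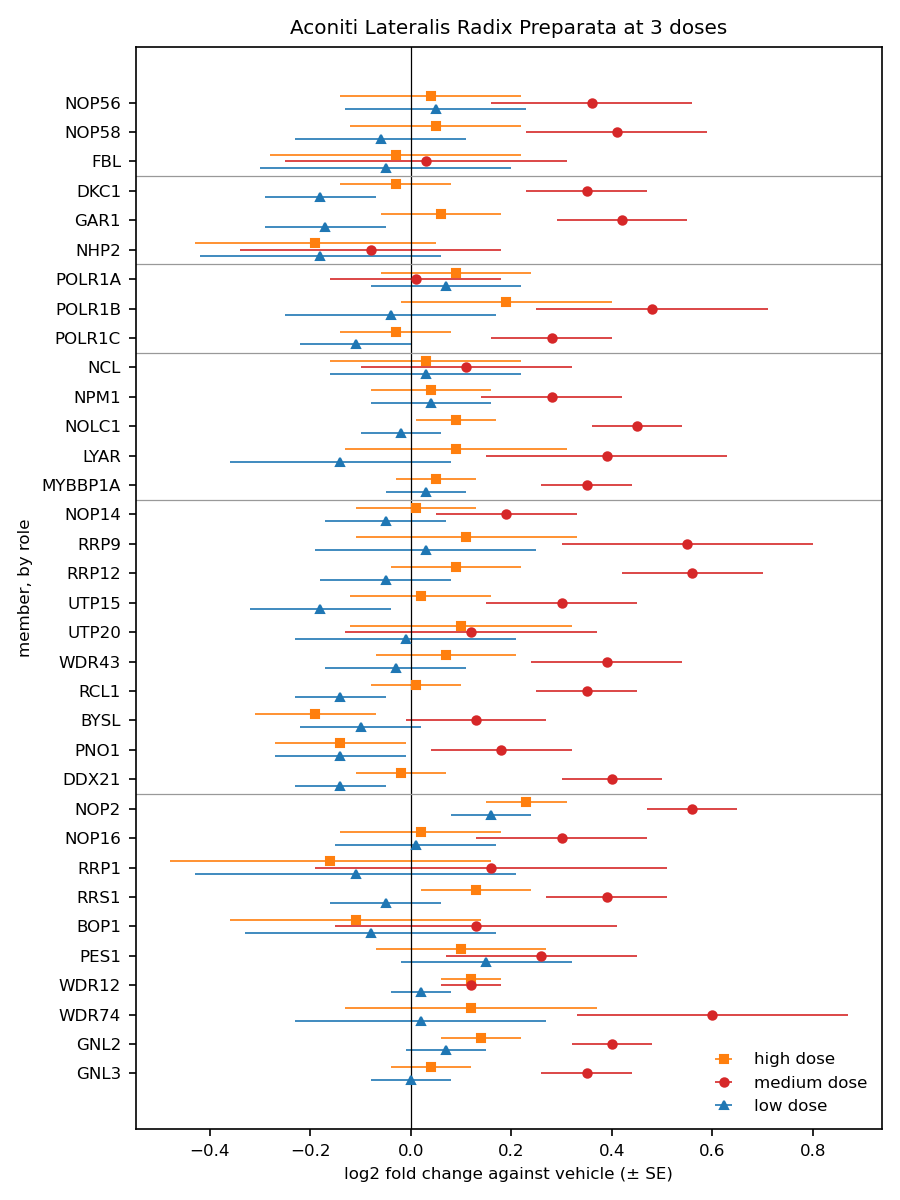
Log2 fold change against vehicle with its standard error (horizontal axis) for each member (rows, by role) at the high, medium and low dose of Aconiti Lateralis Radix Preparata, from the fit of 59 libraries. At the medium dose 33 of 34 members lie above 0, while the high and low doses scatter around it.

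The rise did not follow the dose. At the high dose of 500 µg/mL no member was called by edgeR or DESeq2, with 2 members at an unadjusted p below 0.05, and the median log2 fold change was 0.05. In that comparison 2.56% of all genes were called higher. Without the 4 libraries NOP2 alone passed (0.23, adjusted p = 0.026, 7.24% of all genes higher), and in the 3 high dose libraries it had 188, 187 and 177 CPM. NOP2 had 170, 176 and 181 CPM at the low dose, also above every vehicle library. At the low dose of 20 µg/mL no member was called by edgeR or DESeq2 and none had an unadjusted p below 0.05, with a median of -0.04, and 0% of all genes were called there. Tested directly, the medium dose exceeded the high dose in 9 members (3.14% of all genes higher) and the low dose in 14 (7.93%). Without the 4 libraries each of these counts was 25 (10.3% and 17.8%). RRP12 led both, with 129, 122 and 118 CPM at the high dose and 106, 115 and 113 CPM at the low dose. Its log2 differences were 0.47 (adjusted p = 0.0285) and 0.61 (adjusted p = 0.00117). DDX21 followed with 0.42 against the high dose, where it had 439, 431 and 428 CPM. DKC1 had 195, 193 and 191 CPM at the high dose and 174, 170 and 177 CPM at the low dose, with log2 differences of 0.38 and 0.53. GAR1 differed by 0.60 from the low dose, where it had 29.6, 29.8 and 28.1 CPM. In each of these genes both medium dose libraries lay above every high and low dose library. The count against the high dose was 1 without either medium dose library, 5 without replicate 1 or 2 of the high dose and 2 without its replicate 3, and it was 1 with no low-count filter. These dose contrasts lie within 1 series of sample codes, whereas the vehicle libraries carry codes of their own. They share the medium dose libraries with the comparison against vehicle, and they were added after the data were seen.

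Of 136 further ribosome biogenesis genes on fixed lists, 27 (19.9%) rose at the medium dose against vehicle and none fell, beside 8.23% and 9.28% of all genes tested. Their median log2 fold change was 0.16, against 0.35 for the members. In the other 55 libraries 61 (44.9%) rose and 1, NOP9, fell, beside 16.5% and 16.3% of all genes. By list, 13 of 50 other large subunit genes rose, 7 of 42 other small subunit genes and 3 of 11 other snoRNP genes. The shares nearest to that of all genes were 2 of 13 other RNA polymerase I genes (15.4%) and 2 of 20 genes of the RNA exosome and RNase MRP (10%). RPP25, a protein of RNase P and RNase MRP, had 51.8 and 53.4 CPM against 23.3, 24.3 and 26.1 CPM, a log2 fold change of 1.10 (SE 0.21, adjusted p = 0.00012). DDX10, an RNA helicase, had 88.6 and 81.7 CPM against 48.0, 48.8 and 48.7 CPM, a log2 fold change of 0.81. Both changes exceed that of any member.

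The MYC network was listed beside the pathway because its proteins bind the E-box. MYC had 255 and 253 CPM at the medium dose against 147, 133 and 152 CPM in vehicle, a log2 fold change of 0.82 (SE 0.18, adjusted p = 0.000936). It also exceeded the high dose by 0.71 (adjusted p = 0.00978) and the low dose by 0.79 (adjusted p = 0.00139). Of the 10 network genes measured, MAX, MXD1, MXI1 and MNT rose as well, and MXD4 fell by 0.47. That made 5 higher and 1 lower, beside 8.23% and 9.28% of all genes tested. MXD1, MXI1, MNT and MXD4 encode repressors that pair with MAX. In the 55 libraries MYCL (0.63), MLX (0.34) and MGA (0.51) rose too and MXD3 fell by 0.64, so that all 10 were called, 8 higher and 2 lower. At the high dose of Coptidis Rhizoma, where GNL2 was the one member called, MXD1 (1.01) and MXI1 (0.65) also rose, beside 6.41% of all genes. MYC itself had 0.37 there, which did not pass with 59 libraries (adjusted p = 0.208) and did with 55 (0.39, adjusted p = 0.00106). Whether the level of MYC has a part in that of the members was not tested. Antisense genes took 2922 and 2939 CPM before scaling in the 2 medium dose libraries of Aconiti Lateralis Radix Preparata. These values lay below the 4 libraries that stand apart and above the 2762 to 2806 CPM of vehicle. Mitochondrial ribosomal RNA took 2.15% and 2.64% of counts, against 2.24% to 2.43% in vehicle.

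With Coptidis Rhizoma, the rhizome of the goldthread plant, 1 member, GNL2, fell at 110 µg/mL. GNL2 had 37.7 and 33.6 CPM at the high dose, 44.9 and 44.5 CPM at the medium dose and 48.8 and 44.5 CPM at the low dose, against 53.7, 47.6 and 49.5 CPM in vehicle. Both high dose libraries lay below every vehicle, medium dose and low dose library. The log2 fold change against vehicle was -0.50 (SE 0.09, adjusted p = 6.87e-05), and 6.14% of all genes were called lower and 6.41% higher, beside 1 and 0 of the 34 members. GNL2 was also lower than at the low dose, with a log2 difference of -0.39 (adjusted p = 0.0156, 1.38% of all genes lower), a call that was lost without any 1 of the 4 libraries compared and with no low-count filter. At the high doses of the 2 extracts whose sample codes share a series it was lower with Coptidis Rhizoma than with Zizyphi Fructus, where it had 56.4 and 51.5 CPM. That log2 difference was -0.60 (adjusted p = 1.98e-05, 4.02% of all genes lower). The median member changed by -0.05 against vehicle, beside -0.007 for all genes. GNL2 lies on chromosome 1 (37566816 to 37595935 on GRCh38, minus strand) and overlaps DNALI1 on the other strand. The library kit marks strand, and how the counting used it was not given in the sources used here.

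**Figure D4:**
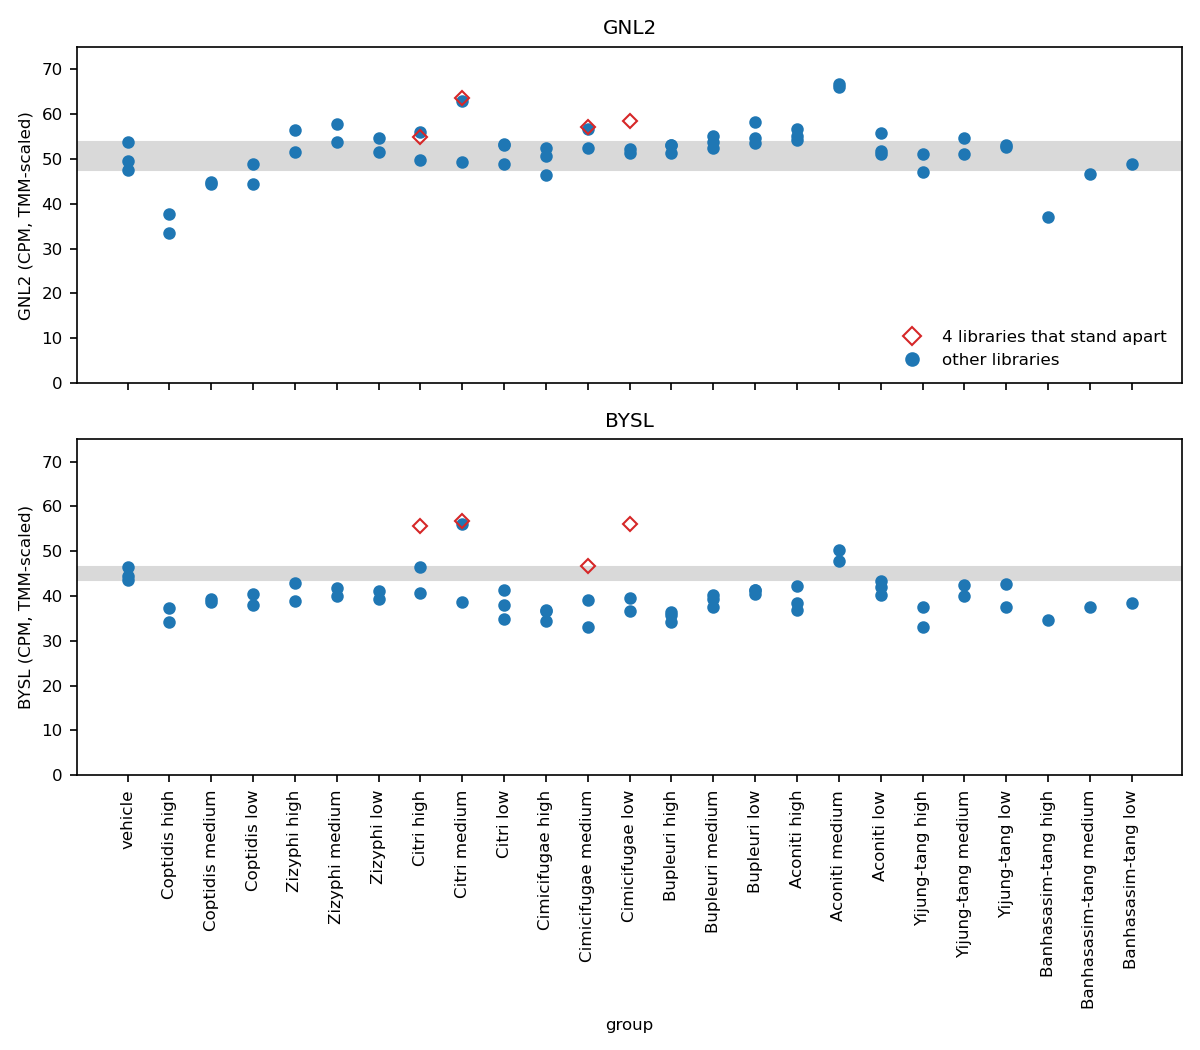
CPM (TMM-scaled, vertical axes from 0) of GNL2 and BYSL in each library by group, with the vehicle range as a grey band and the 4 libraries that stand apart as open diamonds. GNL2 is lowest at the high doses of Coptidis Rhizoma (37.7 and 33.6 CPM) and Banhasasim-tang (37.0 CPM), and BYSL lies under the vehicle range at the high dose of several extracts.

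Without the 4 libraries, 4 of the 34 members (11.8%) rose at this dose of Coptidis Rhizoma and 3 (8.82%) fell, GNL2 among the latter. These shares lay below those of all genes tested, 14.1% higher and 13.8% lower, so the counts set the members apart in neither direction. DKC1 had 230 and 225 CPM against 199, 197 and 193 CPM, with a log2 fold change of 0.23 in the 55 libraries (adjusted p = 0.00736). POLR1B had 85.5 and 84.3 CPM against 71.0, 71.0 and 68.8 CPM, with 0.29 (adjusted p = 0.00334). NOLC1 and NOP2 rose by 0.20 and 0.22. RRP1 had 25.7 and 26.3 CPM against 34.7, 31.9 and 33.0 CPM, with -0.34 (adjusted p = 0.00969). None of these 4 rises nor the falls of RRP1 and BYSL passed with all 59 libraries. Of the members with the least change in each role class, MYBBP1A had 164 and 167 CPM with a log2 fold change of 0.02, FBL had 339 and 322 CPM with -0.03, and UTP15 had 50.8 and 44.7 CPM with -0.01. POLR1C had 32.7 and 28.3 CPM with -0.07 and NOP16 had 49.1 and 49.8 CPM with -0.07. NCL had 1119 and 1071 CPM against 1289, 1238 and 1224 CPM, a log2 fold change of -0.19 that did not pass, and NOLC1 had 327 and 319 CPM. GAR1 had 30.5 and 27.0 CPM with -0.19, and NOP58 had 141 and 139 CPM against 150, 151 and 146 CPM with -0.09. At the medium and low dose no member was called by edgeR or DESeq2 and none had an unadjusted p below 0.05 (3.27% and 0.447% of all genes called in either direction). In the 55 libraries POLR1B passed at the medium dose (0.26, adjusted p = 0.0178). Of the 136 other pathway genes 1 (0.735%) rose at the high dose, EFL1 (0.47), and 7 (5.15%) fell, among them RRP1B (-0.41) and EXOSC9 (-0.37), beside 6.41% and 6.14% of all genes. In the 55 libraries 8 (5.88%) rose and 30 (22.1%) fell, beside 14.1% and 13.8%. Mitochondrial ribosomal RNA took 6.09% and 6.42% of counts at the high dose, 10.3% and 11.2% at the medium dose and 9.13% and 9.36% at the low dose, and its part in these values was not tested.

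BYSL (bystin), which helps release the small subunit for export, was lower at the high dose of 4 extracts in the fit of 55 libraries and in none with all 59. Against 43.6, 46.5 and 44.5 CPM in vehicle it had 37.4 and 34.2 CPM with Coptidis Rhizoma. With Cimicifugae Rhizoma it had 34.5, 36.7 and 36.9 CPM. With Bupleuri Radix it had 36.5, 35.9 and 34.2 CPM, and with Yijung-tang 33.1 and 37.5 CPM. Every one of these libraries lay below all vehicle libraries. The log2 fold changes in the 55 libraries were -0.31, -0.32, -0.33 and -0.34, with adjusted p of 0.0114, 0.0236, 0.00508 and 0.0162 (for Cimicifugae Rhizoma 2.15% of all genes lower). With all 59 libraries the adjusted p were 0.128, 0.482, 0.145 and 0.281. The 4 comparisons share their vehicle libraries. BYSL also lay below every vehicle library in 48 of the 52 extract libraries other than the 4 that stand apart. How many of all genes did so as often was not counted. Cimicifugae Rhizoma at the medium dose was also called lower in the 55 libraries, with -0.32 (adjusted p = 0.0464, 2.6% of all genes lower), from 33.1 and 39.2 CPM after replicate 2 was left out.

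PNO1, a partner in the late small subunit, fell beside BYSL in the 55 libraries with Bupleuri Radix and with Yijung-tang at the high dose. It had 72.7, 78.7 and 81.6 CPM with Bupleuri Radix against 91.2, 91.5 and 92.1 CPM in vehicle, a log2 fold change of -0.24 (adjusted p = 0.0157). With Yijung-tang it had 70.7 and 73.1 CPM, -0.34 (adjusted p = 0.00308). DDX21 fell with Bupleuri Radix by 0.15 on the log2 scale, and BOP1 fell with Yijung-tang by 0.32. In these comparisons 7.09% (Bupleuri Radix) and 4.66% (Yijung-tang) of all genes were lower. With 59 libraries no member was called by edgeR or DESeq2 at any dose of either extract. From high to low dose 3.36%, 0.00539% and 0% of all genes were called for Bupleuri Radix and 1.37%, 0.0108% and 0% for Yijung-tang, in either direction. At the high doses 1 member for Bupleuri Radix and 2 for Yijung-tang had an unadjusted p below 0.05, all lower. PNO1, like BYSL, lay below all vehicle libraries in 48 of the 52 extract libraries, and so did NHP2, while NOP2 lay above all vehicle libraries in 48. Extract and library series cannot be told apart in these counts.

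Citri Unshius Pericarpium, mandarin peel, gave 6 higher members and none lower at 500 µg/mL with all libraries, where 3.52% of all genes were called higher. These were RRP1, RRP9, NCL, PES1, MYBBP1A and NOP2. Replicate 3, 1 of the 4 libraries that stand apart, was the highest in all but NOP2. RRP1 had 32.4, 38.9 and 155 CPM in the 3 high dose libraries against 34.7, 31.9 and 33.0 CPM in vehicle. RRP9 had 34.3, 47.0 and 95.7 CPM against 35.3, 33.5 and 35.8 CPM, and NCL had 1148, 1446 and 3367 CPM against 1289, 1238 and 1224 CPM. In each of the 3 genes replicate 1 lay inside or below the vehicle range, replicate 2 above it and replicate 3 far above. The log2 fold changes were 1.18, 0.75 and 0.67, with adjusted p of 0.0372, 0.0482 and 0.0398. Without the 4 libraries they were 0.11, 0.23 and 0.05 and no member was called, in a comparison of 2 libraries against 3 (0.878% of all genes higher). NOP2 had 162, 210 and 201 CPM, and its log2 fold change was 0.28 with replicate 3 and 0.25 without the 4 libraries. The count was also 0 without any 1 vehicle library, 19 without replicate 1 and 12 without replicate 2. Of the 136 other pathway genes 13 (9.56%) rose, led by SURF6 (1.28) and POLR1G (0.99), and 1 (0.735%) fell, NOL9 (-0.49), beside 3.52% and 0.905% of all genes. In the 55 libraries none rose and 1 fell, beside 0.878% and 0.573%.

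Against the low dose 4 members were higher (BOP1, DKC1, MYBBP1A and RRP1, with 3.12% of all genes higher), and against Cimicifugae Rhizoma at the high dose 14 were higher (6.26%). Both counts went to 0 without the 4 libraries and without any 1 library of the low dose or of Cimicifugae Rhizoma. They were 23 and 23 without high dose replicate 1 of Citri Unshius Pericarpium, and 14 and 17 without replicate 2. With the replicate number as a block, the comparison with the low dose called 6 members, not 4. BOP1 had 173, 221 and 624 CPM at the high dose and 155, 194 and 172 CPM at the low dose, and RRP1 had 25.3, 30.0 and 28.0 CPM at the low dose. DKC1 had 179, 203 and 304 CPM at the high dose and 175, 187 and 170 CPM at the low dose. With Cimicifugae Rhizoma at the high dose RRP1 had 27.8, 32.1 and 29.2 CPM and BOP1 156, 172 and 160 CPM. WDR74 had 36.1, 57.4 and 111 CPM at the high dose against at most 39.9 CPM with Cimicifugae Rhizoma. In replicate 3 some members were low instead: POLR1B had 26.6 CPM there against 67.7 and 77.6 CPM in the other 2 libraries, and UTP20 had 60.5 CPM against 139 and 125 CPM. Antisense genes took 4601 CPM before scaling in that library, the highest of the 59, and mitochondrial ribosomal RNA took 1.24%, the lowest. Their part in the members' levels was not tested.

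**Figure D5:**
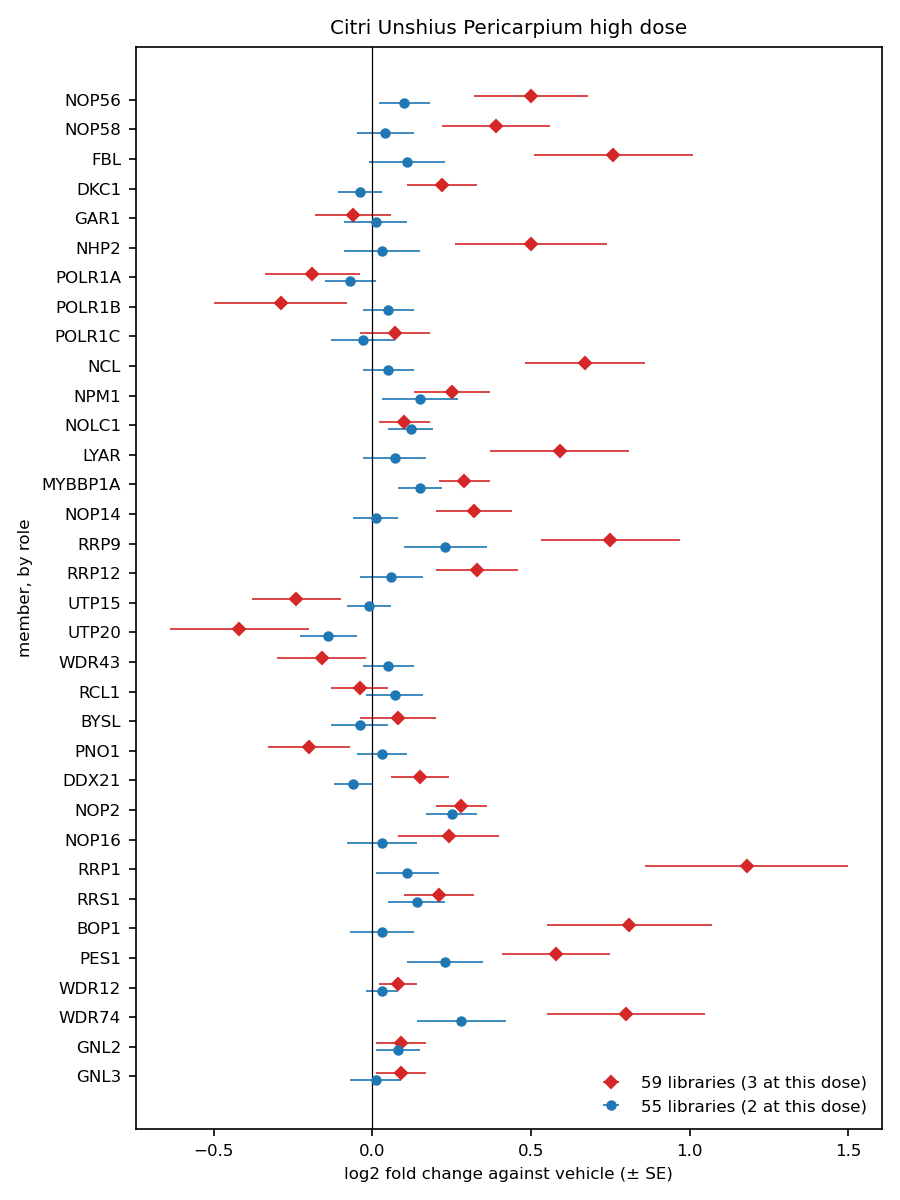
Log2 fold change against vehicle with its standard error (horizontal axis) for each member (rows, by role) at the high dose of Citri Unshius Pericarpium, from 59 libraries (diamonds, 3 libraries at this dose) and from 55 (circles, 2 libraries). RRP1 moves from 1.18 to 0.11 and NCL from 0.67 to 0.05 when the 4 libraries are left out.

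Replicate 2 of this extract was high as well, though it is none of the 4. Its member sums were 8474 CPM at the high dose and 9596 CPM at the medium dose, where 32 of the 34 members lay above all vehicle libraries. The share of all genes above all vehicle libraries was not counted. That medium dose library lay at -35.44 on principal component 2 of all genes tested, against 4.62 to 8.69 in vehicle. At the medium dose NPM1 had 2982 CPM in replicate 2 against 1726 CPM in replicate 1, and RRP9 had 58.3 CPM against 32.8 CPM. At the medium dose no member was called by edgeR or DESeq2 with 59 libraries, with 7 at an unadjusted p below 0.05, all higher, and 9 were called without replicate 1. Of all genes 0% were called there, and at the low dose, with no member called by either tool and none at an unadjusted p below 0.05, 0.00539%. Replicates 1 and 2 of that group thus differed more than the vehicle libraries did, and the 3 libraries had sums of 6781, 9596 and 9091 CPM.

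With Zizyphi Fructus, jujube fruit, no member was called at any dose by edgeR or DESeq2, with none at an unadjusted p below 0.05, and its medians were -0.05, -0.03 and -0.08 from high to low dose. There 0% of all genes were called by edgeR with 59 libraries. For Cimicifugae Rhizoma no member was called with 59 libraries by edgeR or DESeq2, with 1 at an unadjusted p below 0.05 at the high dose and none at the other 2. From high to low dose 0.377%, 0.0269% and 0% of all genes were called. Banhasasim-tang, with 1 library at each dose and no test, had a median log2 ratio to the vehicle mean of -0.154 at the high dose, -0.041 at the medium one and -0.084 at the low one. The median of the 3 vehicle libraries had an SD of 0.019. That is a spread about their own mean, and not that of single extract libraries. At the low dose of Citri Unshius Pericarpium, where no member was called against vehicle, the 3 libraries had medians of -0.13, 0.07 and -0.03. With Banhasasim-tang 23, 16 and 23 of the 34 members lay below all vehicle libraries and 8, 4 and 3 above. The share of all genes outside the vehicle range was not counted. The 3 low dose libraries of Citri Unshius Pericarpium had 26, 6 and 17 members below and 3, 19 and 8 above. At the high dose of Banhasasim-tang GNL2 was the lowest with a log2 ratio of -0.44, and POLR1B the highest with 0.19. Mitochondrial ribosomal RNA took 15.2%, 11.5% and 3.87% of counts in the Banhasasim-tang libraries, and its part in the ratios was not tested.

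Over the 33 comparisons 24 of the 34 members were called at least once with 59 libraries and 26 with 55. NHP2, NPM1, POLR1A, UTP20 and WDR12 were called in neither fit. Across the 55 libraries the members' log2 levels had a median pairwise correlation of 0.62, a description in which libraries share scaling, vehicle and dose groups. NOP58 (median correlation 0.74 with the other members) and RRP9 (0.72) followed the rest most closely. POLR1A (-0.29) and UTP20 (-0.28) ran against it and WDR12 (0.24) followed it least among the others, while GNL2 stood at 0.40 and NCL at 0.43. UTP20 carries an E-box, and POLR1A and WDR12 have promoter windows without one.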

How the data were processed

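RNA of 59 A549 libraries was read as 100 bp pairs from a kit that marks strand, per the labels' protocols. The deposited unit is the expected count per Ensembl gene, made by the authors on hg38, and the submitters' processing notes name RSEM 1.3.3, STAR 2.7.3a, FastQC 0.11.9 and Trim Galore 0.6.5. The annotation release and strand setting are not given in the sources used here. Of the values, 84.4% were whole, and all were rounded for testing. The table's other 210 columns belong to no sample used here. No 2 libraries held identical values.

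One edgeR 4.0.16 model (R 4.3.3, limma 3.58.1) with 25 group means was fitted to all 59 libraries with TMM factors, keeping genes by filterByExpr (minimum count 10, minimum total 15). It has 34 residual degrees of freedom. Each of 33 comparisons was tested by the quasi-likelihood test with Benjamini-Hochberg adjustment over the genes tested, and 2 of them, between doses of Aconiti Lateralis Radix Preparata, were added after the data were seen. The fit was tested on simulated counts first. Banhasasim-tang was given as log2 ratios to the vehicle mean. The alternatives were DESeq2 1.42.0, RLE size factors, library sizes without mitochondrial genes, no low-count filter, only the extracts compared, a replicate block, each replicate left out, and the 4 libraries left out, the last also with the block as an alternative chosen after seeing the data. Replicate numbers come from the labels. Deviations of same-numbered libraries correlated above 0.1 in every pair only for Citri Unshius Pericarpium high against low dose (0.12 to 0.24).

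Named genes follow a rule: all 34 members by role, with values in every library for the members of largest and smallest change in each role at the high dose of Coptidis Rhizoma, for the 3 largest called changes of each comparison, and for the 2 largest called rises and falls among other pathway genes. BYSL, PNO1, FBL, POLR1A and other members outside the rule were named after their values were seen. The members and lists were chosen with earlier results of these data known. Gene positions are from GENCODE 29 on GRCh38, in which 94.0% of the gene IDs were found.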

Additional observations from a re-analysis of the deposited data

How the results depend on the processing

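Counts of members called are given, and no result changed direction. RLE size factors left all 33 counts within 1.5 times. With the replicate block all 33 counts also stayed within 1.5 times. Citri Unshius Pericarpium gave 7 against vehicle and 6 against its low dose under the block, medium dose Aconiti Lateralis Radix Preparata 11 against vehicle, 9 against its high and 14 against its low dose, and WDR43 alone was lost in the last. Without the 4 libraries the counts against vehicle were 7 and 1 for Coptidis Rhizoma at the high and medium dose, 0 for Citri Unshius Pericarpium high, 1 and 1 for Cimicifugae Rhizoma high and medium, 3 for Bupleuri Radix high, 1 and 22 for Aconiti Lateralis Radix Preparata high and medium, and 3 for Yijung-tang high. Between high and low dose they were 2 for Coptidis Rhizoma, 0 for Citri Unshius Pericarpium and 2 for Aconiti Lateralis Radix Preparata. They were 5 for Coptidis Rhizoma against Zizyphi Fructus, 0 for Citri Unshius Pericarpium against Cimicifugae Rhizoma, and 25 and 25 for the medium against the high and the low dose of Aconiti Lateralis Radix Preparata. With the replicate block added to that fit these counts were the same, except 6 for Coptidis Rhizoma high, 24 for Aconiti Lateralis Radix Preparata medium, 6 against Zizyphi Fructus and 2 for Citri Unshius Pericarpium medium. With only the extracts compared in the fit, counts against vehicle were 16, 8 and 2 for Coptidis Rhizoma, 0 for Citri Unshius Pericarpium high, 9, 5 and 4 for Bupleuri Radix, 6, 25 and 3 for Aconiti Lateralis Radix Preparata from high to low dose, and 9 and 1 for Yijung-tang high and low. Between high and low dose they were 10 for Coptidis Rhizoma, 0 for Citri Unshius Pericarpium, 1 for Bupleuri Radix and 5 for Aconiti Lateralis Radix Preparata. Between extracts they were 12 for Coptidis Rhizoma against Zizyphi Fructus, 0 for Citri Unshius Pericarpium against Cimicifugae Rhizoma and 4 for Bupleuri Radix against Aconiti Lateralis Radix Preparata, and the medium dose of the last gave 27 and 27 against its high and low dose. With no low-count filter Citri Unshius Pericarpium gave 11 (high), 3 (medium) and 12 (high against low), Coptidis Rhizoma high against low 0, Cimicifugae Rhizoma high against low 2 and Aconiti Lateralis Radix Preparata medium against high 1. DESeq2 gave 10 for Citri Unshius Pericarpium high and 11 for high against low. The median of Banhasasim-tang at the high dose was -0.133 with library sizes without mitochondrial genes. The causes of these shifts were not tested.

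Leaving out each replicate in turn gave 0 to 19 for Citri Unshius Pericarpium high, 0 to 9 for its medium dose, 0 to 23 for its high against low dose and 0 to 23 against Cimicifugae Rhizoma. It gave 7 to 10 for Aconiti Lateralis Radix Preparata medium, 1 to 5 for medium against high dose, and 0 to 0 for Coptidis Rhizoma high against low dose. Where 1 library was left in a group, it was assumed to vary like the other groups. With 2 or 3 libraries in a group, an adjusted p above 0.05 does not show that a member kept its level.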
